A study of Macaca mulatta with 8 samples.

Results

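The genes described here encode the molecules with which cells hold to each other and to the extracellular matrix, and the matrix itself. Members were taken by gene symbol. They are the probe sets with 1 gene symbol in the platform annotation that names a collagen, a laminin chain, an integrin alpha or beta chain, a numbered cadherin, a syndecan, a claudin, a matrix metalloproteinase (MMP) or an ADAM protease, together with VCAM1, ICAM1, HSPG2, FN1, DCN, CD9 and CD81. This gave 281 probe sets for 148 genes, out of 52766 probe sets of which 24956 carried 1 symbol. A probe set is a group of short probes on the array that together report 1 transcript, and several can report the same gene.

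The samples were rhesus macaque oocytes at metaphase II, the stage at which the mature egg waits for fertilization. Maturation took place in vivo, inside the animal, for 4 arrays and in vitro, in culture, for the other 4. Each array carried RNA of a pool of 4 oocytes after 2 rounds of amplification, and the labels give no strain, age, hormone treatment or donor animal for either group. The labels call the arrays biological replicates without tying them to animals, so a p-value reads only how far these pools spread, which may be technical, and in a pool less RNA per oocyte cannot be told apart from fewer oocytes with the transcript.

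The MAS5 signals, as the authors deposited them, had the same trimmed mean on all 8 arrays, and the number of arrays limits the precision. The background of an array, taken from control probe sets for transcripts that were not added, lay between 15.7 and 27.0, and between 47.0% and 59.4% of the member probe sets were above it. All 11 oocyte markers measured, among them MOS, ZP3 and BMP15, were above background on all 8 arrays. The ratio of the 3' to the 5' control probe set of EEF1A1, a measure of how far amplification reached along a transcript, was 2.71, 7.70, 2.72 and 12.8 on in vivo replicates 1 to 4 and 3.91, 4.91, 4.28 and 3.59 in vitro. Below, values of single arrays stand in the order of replicates 1 to 4.

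Integrins are receptors made of an alpha and a beta chain that bind matrix proteins such as laminins, collagens and fibronectin or, in some pairs, proteins of other cells such as VCAM1. Laminins, type IV collagens and the proteoglycan perlecan (HSPG2) build basement membranes, like the one that surrounds the granulosa cells of a follicle. Cadherins and claudins join neighbouring cells at adherens and tight junctions, syndecans are membrane proteoglycans, and MMP and ADAM proteases cut matrix and membrane proteins. The oocyte touches cumulus cells through the zona pellucida, and the tetraspanin CD9 on its surface is needed for fusion with sperm.

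The comparison asked whether transcripts of these genes differed between oocytes matured in culture and in the animal. None of the 136 member probe sets that were bright enough to be tested, which covered 93 genes, passed a limma adjusted p of 0.05, where 0.144% of all 26383 tested probe sets passed, 0.102% higher and 0.0417% lower in vitro. At an unadjusted p under 0.05 there were 20 member probe sets (14.7%, against 10.2% of all), 13 higher and 7 lower in vitro, which is 9.56% and 5.15% of those tested against 4.7% and 5.53% of all. A looser rule of an unadjusted p under 0.05 with at least a 2-fold difference took 3 that were higher in vitro, COL6A1, CDH16 and ADAM15, and 4 that were lower, VCAM1, LAMB2, HSPG2 and DCN. These are 2.21% and 2.94% of the tested members, beside 1.24% and 1.38% of all tested probe sets, which split into 328 higher and 365 lower here and into 419 and 289 with median centring. The median log2 fold change, in vitro minus in vivo throughout, was 0.05 over the members and 0.01 over all tested probe sets. The looser counts of 3 and 4 became 5 and 9 without in vivo replicate 2, and the count of lower members became 8 without in vivo replicate 4. These settings moved the shares over all tested probe sets too, to 1.4% higher and 2.11% lower without in vivo replicate 2 and to 2.52% lower without in vivo replicate 4.

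Markers of granulosa and cumulus cells, the cells around the oocyte, were read beside the members, and some of them differed between the groups. Of 16 tested genes of that list, INHBA, a subunit of activin and inhibin, and STAR, which brings cholesterol to the mitochondrion for steroid synthesis, rose in vitro by 3.08 and 2.60 on the log2 scale (limma adjusted p = 0.00226 and 0.00861). At an unadjusted p under 0.05 the list held 5 genes higher and 0 lower in vitro, the others being HSD3B2 with a log2 fold change of 2.28, EFEMP1 with 1.96 and INHA with 0.59. The summed signal of its 18 measured genes was 19055 to 25653 in vivo and 19747 to 26312 in vitro, most of it from SERPINE2. Without SERPINE2 the sum was 7220.1 to 8636 in vivo and 9405 to 12418 in vitro, and the groups did not overlap. That sum still held INHBA, with means of 165 in vivo and 1483 in vitro, and STAR, with 191 and 1181. Of the 16 tested genes 8 were higher and 8 lower in vitro, with a median log2 fold change of -0.01. Of the 18 genes 12 were above background on all 8 arrays and 1, INHBB, on none, and the part of such cells in the member values was not tested.

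**Figure D1:**
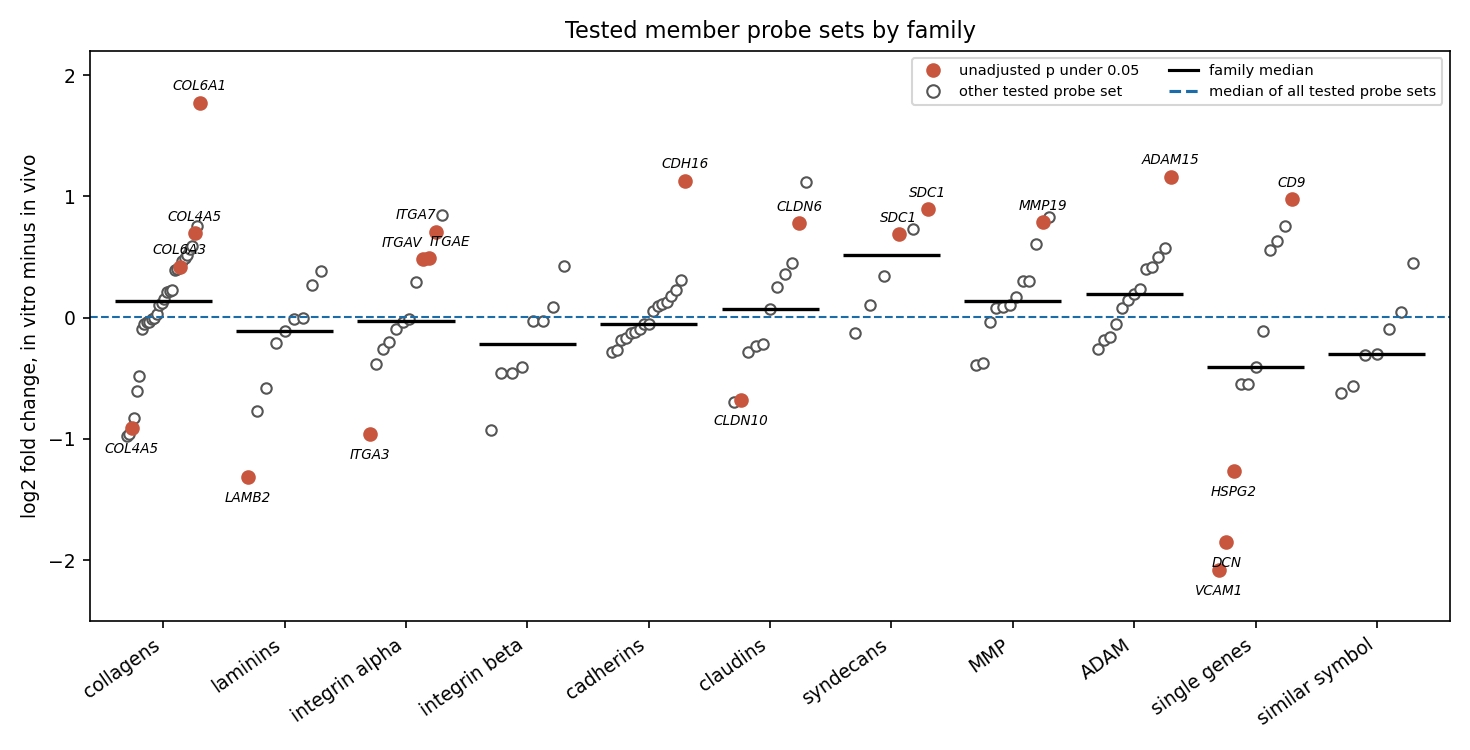
Log2 fold changes (vertical axis, in vitro minus in vivo) of the 136 tested member probe sets by gene family, with filled points for the 20 with an unadjusted p under 0.05, black lines for family medians and a dashed line for the median of all tested probe sets. Most points lie near 0, VCAM1 and DCN are lowest at -2.08 and -1.85 and COL6A1 is highest at 1.77; none passed the adjusted threshold.

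VCAM1 encodes a cell surface protein of the immunoglobulin family that binds integrins containing the alpha 4 chain. Its signals were 419.9, 125, 256 and 44.1 in vivo and 49.0, 25.5, 26.1 and 28.7 in vitro. In vivo replicates 1, 2 and 3 lay above every in vitro array, and in vivo replicate 4 lay inside the in vitro range, so the groups overlapped. The log2 fold change of -2.08 ± 0.50 (SE), a 4.24-fold lower level in vitro on the log2(signal + 8.2) scale, did not pass (limma adjusted p = 0.171). VCAM1 passed without in vivo replicate 4 (limma adjusted p = 0.00607), where 0.368% of all tested probe sets passed. Over the alternatives its limma adjusted p ran from 0.000870 to 0.406. The lowest came with the EEF1A1 ratio as a covariate, an alternative chosen after seeing the data, where 1.11% of all tested probe sets passed. Markers of blood and immune cells had a summed signal of 248 to 357 on the in vivo arrays and 108 to 206.5 in vitro, and those of endothelium 1560.1 to 2149 and 1385 to 1569.8. Of 7 endothelial markers measured, ENG, PECAM1, TEK and VWF were above background on all 8 arrays and KDR on none. TEK, a receptor of endothelium, was lower in vitro like VCAM1, with 1082, 798, 758 and 476 in vivo and 365, 486, 436 and 483 in vitro (-0.76, limma adjusted p = 0.294). Of 9 blood and immune markers none was above background on all 8 arrays and S100A9 on no array, while CD68, a macrophage gene, was above it on 4 in vivo arrays and 0 in vitro (-1.02, limma adjusted p = 0.525). In each list 4 of the 5 tested markers were lower and 1 was higher in vitro. The higher ones were PECAM1, with a log2 fold change of 0.38, and CD14, with 0.15. The endothelial sum without TEK was 1067 to 1263 in vivo and 901.5 to 1140 in vitro. The blood and immune sum without HBB was 121 to 353 and 102 to 176, so both overlapped. None of the 5 tested markers of either list passed, and the part of such cells in the VCAM1 values was not tested. ICAM1, a related receptor for leukocyte integrins, was too dim to be tested, with 4.7, 10.4, 16.1 and 68.3 in vivo and 13.0, 23.2, 5.3 and 5.3 in vitro.

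Among integrin alpha chains, 12 probe sets of 7 genes were tested, 3 with an unadjusted p under 0.05 and a higher level in vitro and 1 with a lower one (33.3% in either direction, against 10.2% of all tested probe sets). ITGAE, the alpha chain of a receptor that binds E-cadherin, had 1986, 1866, 1672 and 1815 in vivo and 2202, 2798, 2673 and 2667 in vitro. Every in vitro array was above every in vivo array. Such a gap between the groups was found in 9 member probe sets (6.62%) and 6.28% of all in either direction, and it held in the direction of ITGAE for 7 of the 136 tested member probe sets (5.15%) and for 3.17% of all tested probe sets. The difference was small beside that of VCAM1, with a log2 fold change of 0.49 ± 0.16 (SE; limma adjusted p = 0.306). ITGAV, which pairs with several beta chains to bind vitronectin and fibronectin, had 246, 216, 213 and 201 in vivo and 335, 295, 245 and 372 in vitro, and its groups overlapped at 1 value on either side. ITGA3, a laminin receptor chain, was lower in vitro, with 43.7, 68.4, 45.0 and 54.0 in vivo and 7.2, 38.0, 31.6 and 24.2 in vitro (-0.96 in log2 fold change; limma adjusted p = 0.416). Its groups did not overlap, which held in this direction for 2 member probe sets (1.47%) and 3.11% of all, and its other probe set was at or below background on all 8 arrays. ITGA7, a muscle laminin receptor chain, had log2 fold changes of 0.71, 0.85 and -0.38 at its 3 tested probe sets. ITGA9 was not analysed here.

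ITGA6, a laminin receptor chain found on the egg membrane, had signals of 254, 517, 294 and 338 in vivo and 393, 388, 413 and 475 in vitro at a first probe set. At this and 3 further probe sets the log2 fold changes were 0.29, -0.20, -0.03 and -0.26, with no adjusted p below 0.694. Its partner ITGB1, the most widely shared beta chain, had 245, 285, 216 and 204 in vivo and 157, 116, 219.9 and 236 in vitro (log2 fold change -0.40 ± 0.25 SE), and the groups overlapped. ITGB5, a beta chain that pairs with ITGAV, spread widely in vivo, with 1175, 199.7, 1086 and 178 in vivo and 210.1, 360.3, 218 and 202 in vitro. In vivo replicates 1 and 3 stood apart, and the other 6 arrays lay between 178 and 360.3. Its log2 fold change of -0.93 ± 0.52 (SE) did not pass (limma adjusted p = 0.570), and a dimmer ITGB5 probe set had -0.46. ITGB3, the beta chain of the platelet receptor, was tested at 2 of 8 probe sets, with -0.46 and 0.08, and the other 6 were too dim.

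CD9 was reported by 3 probe sets that differed in direction. The brightest had 173, 179.8, 235 and 302 in vivo and 160.0, 154, 173 and 162 in vitro, a log2 fold change of -0.40 ± 0.23 (SE), and another had -0.55 ± 0.31. The dimmest had 18.5, 23.8, 13.2 and 7.2 in vivo, where it was above background on 1 array, and 34.5, 31.0, 41.7 and 42.2 in vitro, where it was above background on all 4, with a log2 fold change of 0.98 ± 0.39. None of these passed (limma adjusted p = 0.575, 0.570 and 0.402), so the direction of CD9 depended on the probe set. CD81, a related tetraspanin of the egg surface, had 947, 568, 821 and 477 in vivo and 491, 632, 311 and 464 in vitro. Its log2 fold change was -0.55 ± 0.26 (SE; limma adjusted p = 0.491), with in vivo replicates 1 and 3 above all in vitro arrays. The second CD81 probe set was at or below background on all 8 arrays.

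Of basement membrane genes, LAMB2 and HSPG2 had lower mean signals in culture. LAMB2, the laminin beta 2 chain, had 227, 70.7, 173 and 61.0 in vivo and 46.9, 41.8, 48.0 and 31.2 in vitro. All in vitro arrays lay below all in vivo arrays, and in vivo replicates 1 and 3 were the highest. The log2 fold change was -1.31 ± 0.38 (SE), 2.48-fold lower in vitro, and did not pass (limma adjusted p = 0.259). HSPG2 had 141, 40.3, 75.7 and 102 in vivo and 35.2, 19.1, 22.4 and 46.9 in vitro, 2.40-fold lower in vitro with a log2 fold change of -1.27 ± 0.38 (limma adjusted p = 0.278). Its groups overlapped only through in vivo replicate 2 and in vitro replicate 4, and its second probe set was too dim for the test.

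Of the laminin alpha chains, LAMA1 had 188, 73.5, 160.0 and 106 in vivo and 93.4, 103, 56.1 and 75.9 in vitro (-0.58 in log2 fold change; limma adjusted p = 0.548). LAMA4, a chain of vessel basement membranes, had 85.2, 4.1, 62.5 and 40.8 in vivo and 14.9, 28.7, 31.8 and 5.6 in vitro, with in vivo replicate 2 below all other arrays and a log2 fold change of -0.77 ± 0.59 (SE). LAMC1, the gamma chain shared by most laminins, was even across arrays, with 1436, 1297, 1267 and 1217 in vivo and 1205, 1189, 1318 and 1489.6 in vitro. Its log2 fold change was -0.01 ± 0.16 (SE; limma adjusted p = 0.993). Over the 9 tested laminin probe sets the median log2 fold change was -0.11, 7 were negative and 2 positive.

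Type IV collagen chains gave values in either direction. COL4A3 and COL4A4, which form a network together with COL4A5, had log2 fold changes of -0.97 ± 0.46 and -0.96 ± 0.47 (SE; limma adjusted p = 0.499 and 0.505). These genes, with ITGA7, COL12A1, COL16A1, SDC4, CDH13, ADAM12 and ADAM9, lie outside the naming rule and were picked with their values known. COL4A3 was dim, with 33.6, 32.1, 56.2 and 24.1 in vivo and 20.7, 9.5, 3.1 and 32.5 in vitro. It was above background on 3 arrays in vivo and 1 in vitro. COL4A4 had 163, 35.2, 126 and 27.0 in vivo and 33.8, 34.7, 33.0 and 24.7 in vitro, so that in vivo replicates 2 and 4 were level with culture. The other probe sets of COL4A3 and COL4A4 were too dim for the test. COL4A5 was higher in vitro at 1 probe set, with 62.6, 84.3, 55.8 and 82.9 in vivo and 121, 112, 148 and 101 in vitro, where the groups did not overlap. At its other probe set it was lower, with 111, 25.2, 69.7 and 49.1 in vivo and 16.6, 29.4, 30.0 and 31.6 in vitro. The log2 fold changes were 0.70 ± 0.25 and -0.91 ± 0.40 (SE), and neither passed (limma adjusted p = 0.364 and 0.455).

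Among other collagens, COL6A1, a chain of the beaded microfibrils of type VI collagen, had the smallest p of all members. Its signals were 6.8, 33.2, 33.9 and 31.0 in vivo and 154, 80.4, 80.5 and 100.2 in vitro. All in vitro arrays lay well above all in vivo arrays, of which replicate 1 was below background. The level was 3.41-fold higher in vitro, with a log2 fold change of 1.77 ± 0.38 (SE), and did not pass (limma adjusted p = 0.103). The remaining COL6A1 probe sets were at or below background on all 8 arrays, so the difference rests on 1 probe set. Markers of theca, stroma and fibroblasts outside the members had a summed signal of 94.2 to 134 in vivo and 142 to 691 in vitro. TAGLN, a smooth muscle gene of that list, had 27.9, 52.2, 58.7 and 26.1 in vivo and 616, 104, 77.7 and 121 in vitro. Without TAGLN the sum was 43.1 to 77.9 in vivo and 52.4 to 112.7 in vitro, and the groups overlapped. None of the 2 tested markers of that list passed, CYP17A1 was at or below background on all arrays, and the part of such cells in the COL6A1 values was not tested. Of type I collagen, which stroma makes in bulk, COL1A2 had 1.8, 2.0, 2.6 and 1.0 in vivo and 10.0, 13.5, 11.5 and 23.0 in vitro at a probe set at or below background on all 8 arrays. Its other probe set and both of COL1A1 were above background on at most 3 arrays.

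COL6A3, another chain of type VI collagen, had 884, 1004, 1496 and 949 in vivo and 1602, 1307, 1277 and 1511 in vitro, a log2 fold change of 0.42 ± 0.19 (SE; limma adjusted p = 0.483). In vivo replicate 3 lay within the in vitro range and the other in vivo arrays below it. COL12A1, a collagen that lies along fibrils, had 559, 116, 1052 and 164 in vivo and 300.3, 163, 153 and 144 in vitro, high on in vivo replicates 1 and 3 (-0.83 in log2 fold change; limma adjusted p = 0.627). COL16A1, of the same class of collagens, had 41.9, 32.1, 39.8 and 28.2 in vivo and 60.4, 45.6, 45.6 and 76.9 in vitro, without overlap, and a log2 fold change of 0.56 (limma adjusted p = 0.557). Over all 30 tested collagen probe sets, which covered 21 of 35 genes, 18 were positive and 12 negative, with a median log2 fold change of 0.14.

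Fibronectin (FN1), the matrix ligand of several integrins, had 1116, 819, 3162 and 1166 in vivo and 2837, 2729, 1472 and 1734 in vitro. In vivo replicate 3 was the highest array of all and the other 3 in vivo arrays were below every in vitro array, which gave a log2 fold change of 0.63 ± 0.34 (SE; limma adjusted p = 0.557). Decorin (DCN), a small proteoglycan that binds collagen fibrils, was tested at 4 of 5 probe sets. At the probe set with the lowest p it had 115, 48.2, 145 and 34.3 in vivo and 3.1, 48.5, 23.4 and 5.1 in vitro, with in vitro replicates 1 and 4 below background and a log2 fold change of -1.85 ± 0.55 (limma adjusted p = 0.274). The others had -0.11, 0.55 and 0.75, so the probe sets of DCN did not share a direction.

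**Figure D2:**
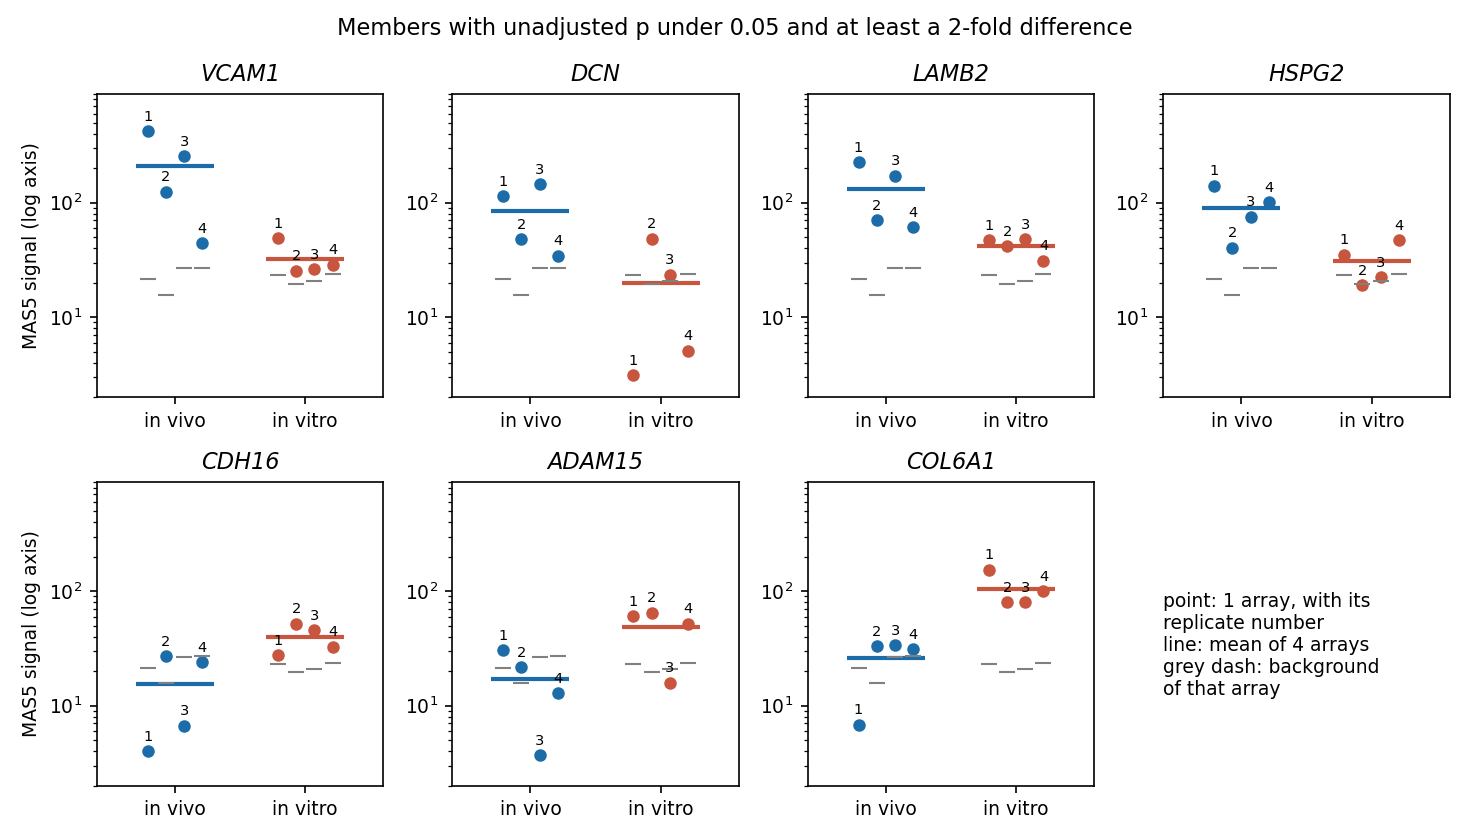
MAS5 signal (log axis) of each array for the 7 members with an unadjusted p under 0.05 and at least a 2-fold difference, with replicate numbers at the points, lines for the means of 4 arrays and grey dashes for each array's background. The in vivo points of VCAM1 spread from 44.1 to 419.9, the groups of LAMB2, CDH16 and COL6A1 do not overlap, and most in vivo points of CDH16 and 2 in vivo points of ADAM15 lie below background.

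For the cadherins, 17 probe sets of 13 genes were tested, with log2 fold changes from -0.28 to 1.13 and a median of -0.05. CDH3, encoding P-cadherin, a classical cadherin of adherens junctions, had 9614, 12009, 8996 and 16736 in vivo and 9169, 13335, 11049.9 and 9909 in vitro. The groups overlapped fully, with log2 fold changes of -0.09 ± 0.20 and -0.12 ± 0.18 (SE) at its 2 probe sets, and both turned positive without in vivo replicate 4. E-cadherin (CDH1) had 78.2, 31.4, 83.7 and 46.4 in vivo and 42.0, 52.2, 36.8 and 101 in vitro, a log2 fold change of -0.05 ± 0.37 whose sign changed with the array left out. CDH5, the endothelial cadherin, had 492, 548, 550.3 and 569.9 in vivo and 437, 467, 481 and 513 in vitro, and CDH17, a cadherin of gut epithelium, had 573, 610.3, 635 and 306 in vivo and 365, 348, 488 and 498 in vitro. Their log2 fold changes were -0.18 ± 0.17 and -0.28 ± 0.25 (SE; limma adjusted p = 0.753 and 0.737). CDH16, a kidney cadherin, was dim, with 4.0, 27.2, 6.7 and 24.1 in vivo and 27.6, 51.8, 45.6 and 32.8 in vitro. In vivo it was above background on 1 array and in vitro on all 4, and its log2 fold change of 1.13 ± 0.45 did not pass (limma adjusted p = 0.408). CDH2 was not analysed here.

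For claudins, 11 probe sets of 10 genes were tested. CLDN10, a claudin that forms ion pores, had 243, 195, 514 and 398 in vivo and 166, 174, 254 and 188 in vitro, with in vivo replicates 3 and 4 highest and a log2 fold change of -0.68 ± 0.29 (SE; limma adjusted p = 0.433). CLDN6, a claudin of early embryos, had 40.2, 95.4, 20.6 and 51.1 in vivo and 108, 83.4, 82.8 and 67.9 in vitro, a log2 fold change of 0.78 (limma adjusted p = 0.487). CLDN4 had 1.11 at a dim probe set and 0.26 at its other one. The median over the family was 0.07, with 6 positive and 5 negative values.

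Syndecan 1 (SDC1), a heparan sulphate proteoglycan of the cell surface, was higher in culture at each of its 3 tested probe sets. The brightest, of a kind whose probes may also match other transcripts, had 278, 321, 198 and 255 in vivo and 392, 350.5, 478 and 858 in vitro, without overlap, and a log2 fold change of 0.89 ± 0.27 (SE; limma adjusted p = 0.281). A second one had 80.3, 100.3, 83.7 and 159.5 in vivo and 178, 130.5, 188 and 188 in vitro with 0.69 ± 0.26, and the third had 0.34 ± 0.29. The probe set left over was too dim for the test, with 17.1, 8.9, 17.8 and 7.8 in vivo, where no array was above background, and 30.0, 29.8, 10.1 and 96.3 in vitro, where 3 were. This leaves a bound of at least 1.34-fold higher in vitro, the mean log2 level in vitro against that of the in vivo background. SDC3 had 0.73 and -0.13 at its probe sets, with limma adjusted p-values of 0.574 and 0.917. SDC4 had a log2 fold change of 0.10, and SDC2 was too dim. The median over the 6 syndecan probe sets was 0.51.

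Of 37 MMP probe sets 12 were tested, and of 22 ADAM probe sets 13. MMP19, a secreted protease of basement membrane proteins, had 94.5, 73.2, 61.5 and 58.9 in vivo and 165, 138, 159.5 and 72.6 in vitro. In vitro replicates 1, 2 and 3 were above all in vivo arrays and replicate 4 was among them, and the log2 fold change was 0.78 ± 0.29 (SE; limma adjusted p = 0.378). MMP14, a membrane protease that activates MMP2, had 0.83, 0.30 and -0.39 at its 3 probe sets. MMP10 had 39.7, 39.0, 45.0 and 45.5 in vivo and 97.0, 29.1, 136 and 54.0 in vitro, even in vivo and scattered in culture, with a log2 fold change of 0.61 ± 0.38. MMP7 had 170.2, 166, 193 and 224 in vivo and 223, 229, 176 and 219.5 in vitro at its brightest probe set, a log2 fold change of 0.17. MMP2 and MMP9, the gelatinases, were too dim to be tested at any probe set.

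ADAM10, which sheds the outer parts of cadherins and other membrane proteins, had, at its brightest probe set, 2460.3, 2992, 1823 and 3427 in vivo and 2922, 2761, 3245 and 2991 in vitro. Its log2 fold changes were 0.19, 0.14 and 0.24 at 3 probe sets, with limma adjusted p-values of 0.772, 0.818 and 0.750. ADAM19 had 832, 912, 1028 and 1061 in vivo and 778, 762, 739 and 924 in vitro (log2 fold change -0.26 ± 0.17 SE), and ADAM21 had 26.1, 31.4, 32.4 and 29.1 in vivo and 35.7, 63.1, 48.6 and 28.5 in vitro (0.42 ± 0.33). ADAM15 was dim, with 30.6, 21.6, 3.7 and 12.8 in vivo, above background on 2 arrays, and 60.3, 64.7, 15.9 and 52.2 in vitro, above background on 3. Its log2 fold change of 1.16 ± 0.48 did not pass (limma adjusted p = 0.422), and a further ADAM15 probe set was too dim for it. ADAM12 had 261, 41.6, 191 and 44.6 in vivo and 148, 205, 92.6 and 119.8 in vitro at its brightest probe set, with in vivo replicates 2 and 4 the lowest of all 8 arrays, and log2 fold changes between -0.05 and 0.50 at 3 probe sets. ADAM9 had 774, 316, 487 and 221 in vivo and 442, 490.4, 444 and 346 in vitro at its brighter probe set, highest on in vivo replicate 1 and lowest on in vivo replicate 4. The log2 fold change was 0.08 there and -0.16 at its other probe set.

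The symbols also took in 5 genes that encode other kinds of protein: CLDND1, a claudin domain protein, the integrin-binding proteins ITGB1BP1, ITGB1BP2 and ITGB3BP, and ITGBL1, an integrin-like secreted protein. Their 7 tested probe sets had log2 fold changes between -0.62 and 0.45 and none had an unadjusted p under 0.05. Without them the median over 129 tested probe sets was 0.08.

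Several probe sets for 1 gene often differed in direction. Of the 29 member genes with more than 1 tested probe set, 11 (37.9%) had the same sign at all of them, and over all genes with a symbol the share was 48.9%. Those shares mix genes with different numbers of probe sets. Among genes with exactly 2, the sign was the same for 8 of 18 members and for 1410 of 2384 genes with a symbol. The widest ranges of log2 fold change were those of DCN (2.60), COL4A5 (1.61) and CD9 (1.52), and the narrowest those of CLDND1 (0.01), CDH3 (0.03) and CDH13 (0.05), a cadherin anchored to the membrane by lipid. The probe positions along the transcripts were not used here.

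**Figure D3:**
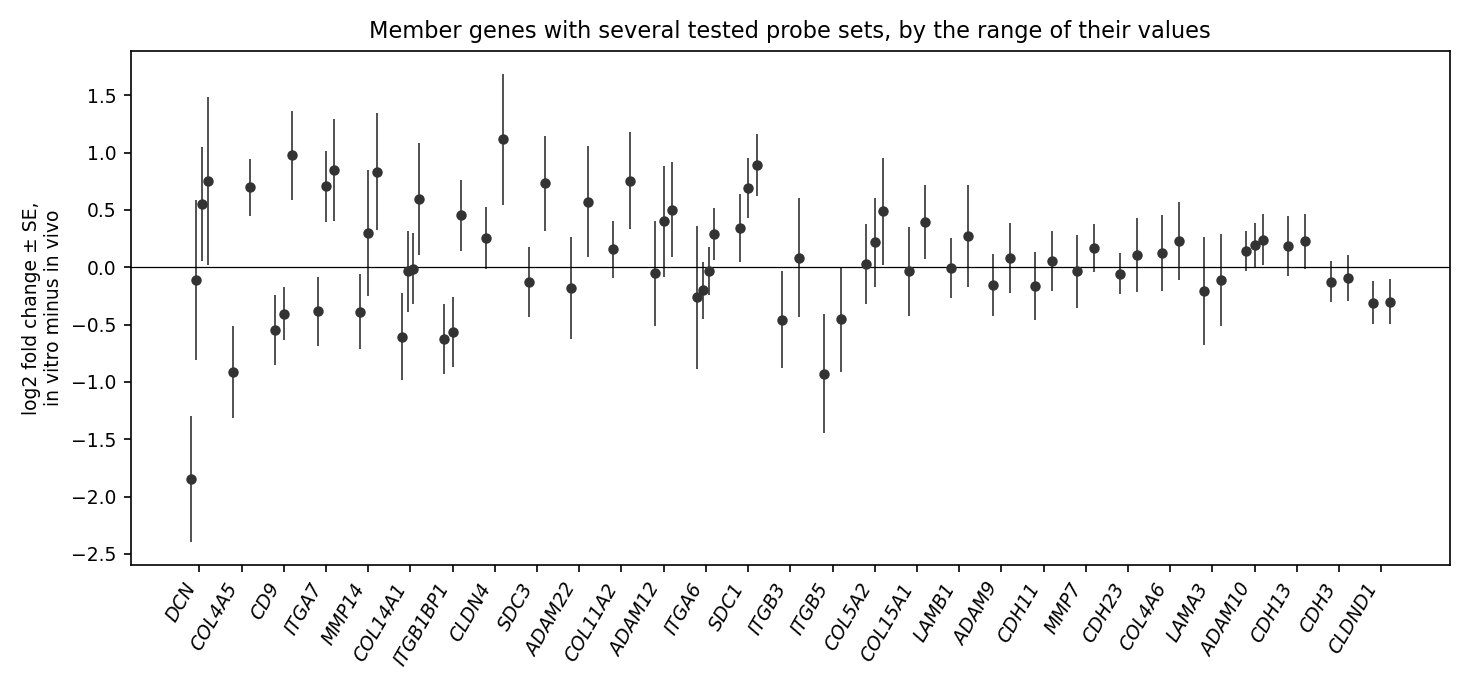
Log2 fold change (in vitro minus in vivo) with its SE at each tested probe set of the 29 member genes with more than 1, ordered by the range between probe sets. DCN, COL4A5 and CD9 have probe sets on opposite sides of 0, whereas the 3 of SDC1 and the 3 of ADAM10 all lie above 0.

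Spread between the in vivo pools was larger than between the pools from culture. The SD of the log2 values was larger in vivo for 91 of 136 member probe sets (66.9%), beside 66.3% of all tested probe sets, and its median was 0.51 in vivo and 0.33 in vitro for members. In vivo replicate 1 was the highest of its group for 42 member probe sets, replicate 3 for 38, replicate 4 for 35 and replicate 2 for 21. As shares these are 30.9%, 27.9%, 25.7% and 15.4%, against 29.7%, 27.5%, 27.7% and 15.1% of all tested probe sets. VCAM1, LAMB2, ITGB5, COL4A4, COL12A1 and ADAM12 had their highest in vivo signals on replicates 1 and 3. So did CD81, LAMA1, LAMA4, CDH1, ADAM9, COL4A5 at the probe set lower in vitro and DCN at several probe sets. Some other named members differed, with HSPG2 highest on replicates 1 and 4, CLDN10 on 3 and 4 and CDH3 on 2 and 4. The share of members or of all probe sets highest on replicates 1 and 3 was not counted. In vivo replicates 1 and 3 also had the lowest EEF1A1 ratios of all 8 arrays, 2.71 and 2.72, against 7.70 and 12.8 on the other in vivo arrays. The other 3' to 5' controls did not repeat this in full. The beta-actin ratio was 75.3, 149.98, 51.2 and 108 in vivo and 51.1, 88.2, 108 and 69.4 in vitro. It was lower on in vivo replicates 1 and 3 than on 2 and 4, but the lowest of all 8 arrays was in vitro replicate 1. The GAPDH ratio was 24.6, 49.4, 20.6 and 24.8 in vivo and 27.3, 47.3, 31.3 and 29.3 in vitro, and did not set in vivo replicate 1 apart from replicate 4. An alternative chosen after seeing the data took the log2 of the EEF1A1 ratio as a covariate. With it VCAM1, LAMB2, COL6A1 and ITGB5 passed (limma adjusted p = 0.000870, 0.0141, 0.0249 and 0.0411). That is 4 of 136 members (2.94%) where 1.11% of all tested probe sets passed, and with the beta-actin ratio 0 members and 0.22% of all passed. Over the alternatives the adjusted p of LAMB2 ran from 0.0141 to 0.4995, that of COL6A1 from 0.0249 to 0.397 and that of ITGB5 from 0.0411 to 0.808.

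**Figure D4:**
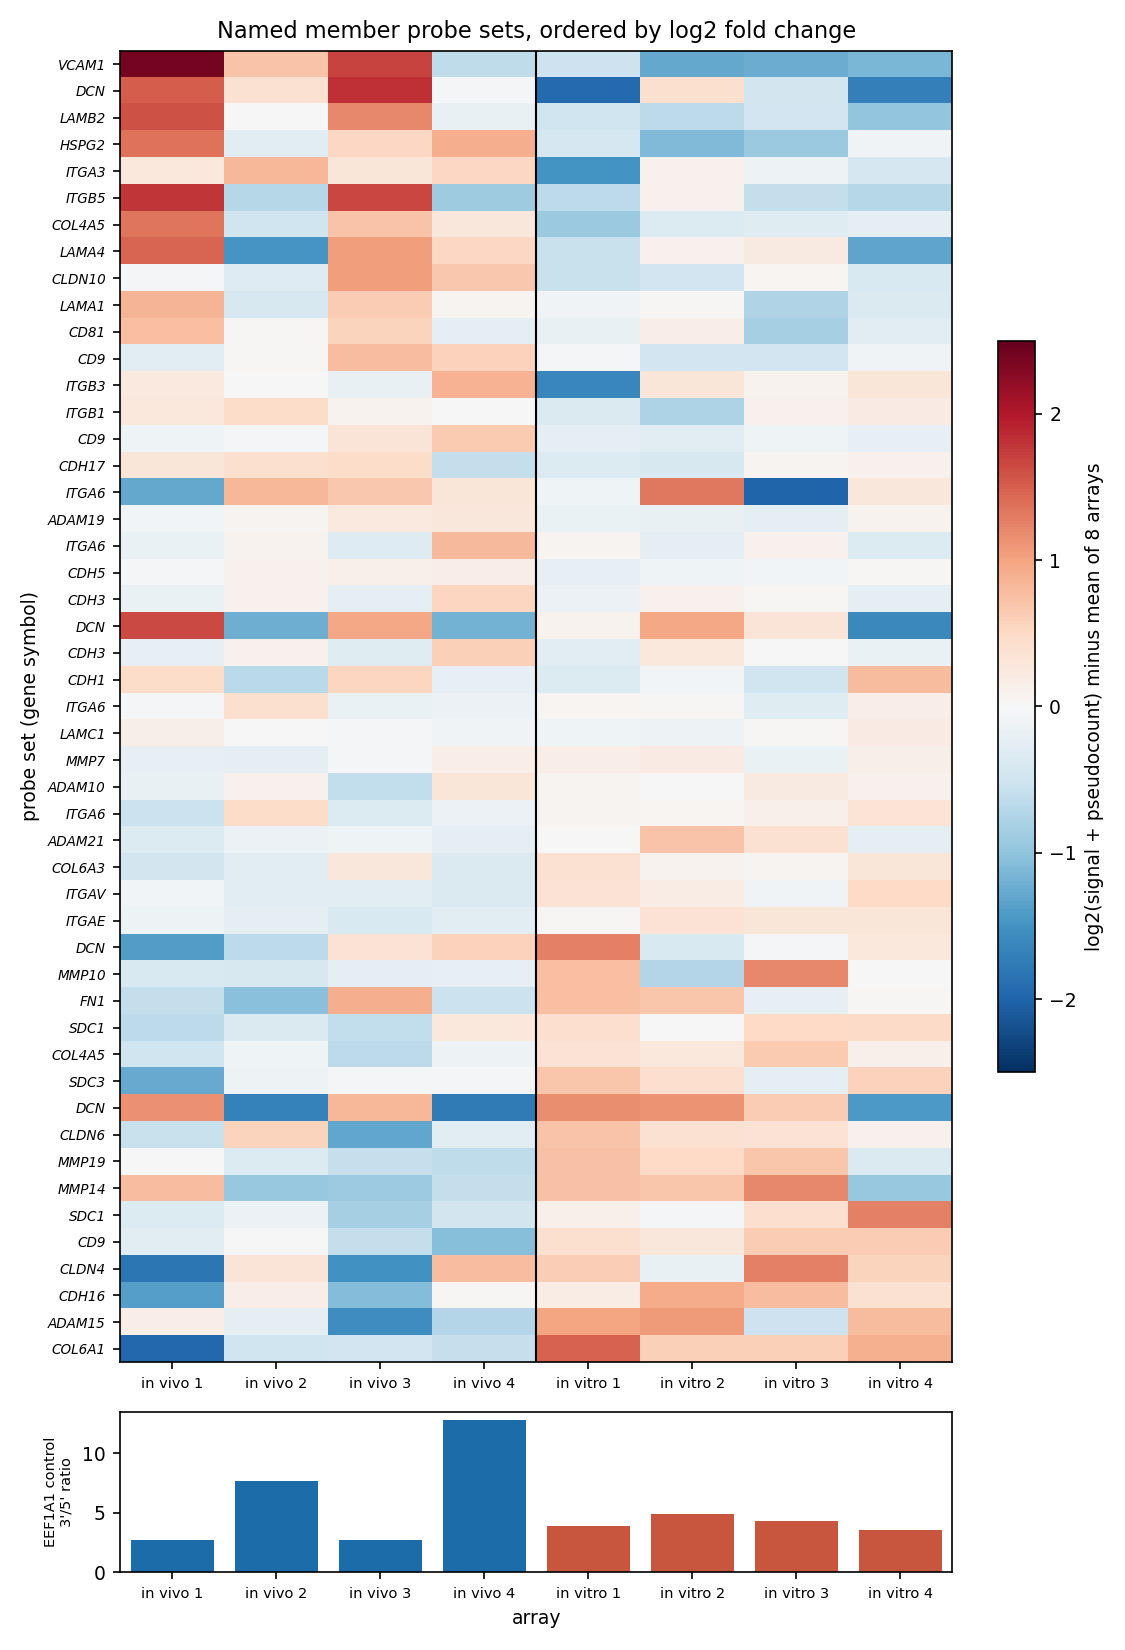
Deviation of each array from the mean of 8 arrays, in log2(signal + 8.2), for the 49 named member probe sets ordered by log2 fold change, above the 3' to 5' signal ratio of the EEF1A1 control on each array. The rows of VCAM1, LAMB2 and ITGB5, among others, are highest on in vivo replicates 1 and 3, whose ratios are 2.71 and 2.72.

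Adhesion genes outside the symbol rule were read from 4 lists of textbook roles, at the brightest probe set of each gene, and none passed the limma adjusted threshold. Of 20 tested cytoplasmic partners of adhesion receptors, 2 were higher and 3 lower in vitro at an unadjusted p under 0.05 (10.0% and 15.0%, against 4.7% and 5.53% of all tested probe sets). PARVA, which ties integrin-linked kinase to actin, had 250.1, 70.4, 276 and 90.4 in vivo and 74.9, 43.9, 56.6 and 66.0 in vitro, again highest on in vivo replicates 1 and 3 (-1.19 in log2 fold change; limma adjusted p = 0.325). Focal adhesion kinase (PTK2) had 456, 296, 566 and 176 in vivo and 181, 155, 171 and 254 in vitro (-0.84, limma adjusted p = 0.382). The scaffold genes PXN and MPDZ had log2 fold changes of -0.59 and 0.51. Of 30 other adhesion receptors 1 was higher and 2 were lower at an unadjusted p under 0.05. That is 10.0% in all, near the 10.2% of all tested probe sets. The higher one was the nectin NECTIN4 with a log2 fold change of 1.06, above background on 2 arrays in vivo and 4 in vitro. The lower ones were the glypican GPC6 with -0.70 and the tetraspanin TSPAN7 with -0.35. GPC1, with 0.59, did not reach that level.

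Of 27 tested genes of matrix assembly and turnover, 1 was higher and 3 were lower at that level (3.7% and 11.1%, against 4.7% and 5.53% of all). SERPINH1, the chaperone of collagen in the endoplasmic reticulum, had 907, 956, 1012 and 602 in vivo and 489, 439, 422 and 412 in vitro. Every in vitro array lay below every in vivo array, with a log2 fold change of -0.94 ± 0.20 (SE) that did not pass (limma adjusted p = 0.0935). LOX, which crosslinks collagen, had 214, 219, 264 and 91.5 in vivo and 93.7, 80.4, 127 and 96.7 in vitro (-0.86, limma adjusted p = 0.359), the collagen lysyl hydroxylase PLOD1 had 0.59 and the MMP inhibitor TIMP2 had -0.59. Of 13 tested further matrix components 1 was higher and 1 lower (7.7% each), EFEMP1 with 1.96 and FBLN1 with -0.86, and the microfibril gene FBN1 had 0.35 and FBLN5 had -0.30. EFEMP1, also a gene of the granulosa and cumulus list, had 475, 146, 40.6 and 78.0 in vivo and 916, 365, 303 and 656 in vitro (limma adjusted p = 0.249).

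The remaining 145 member probe sets were too dim for the test. Of these 49 were at or below background on all 8 arrays, 6 were above it on at least 5 arrays and 0 on all 8. They included every probe set of 55 genes, among them COL1A1, COL1A2, COL2A1, ICAM1, SDC2, ITGB2 and MMP9. Of the 136 tested probe sets, 78 (57.4%) were above background on all 8 arrays, beside 68.3% of all tested probe sets.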

How the data were processed

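The deposited values are Affymetrix intensities summarised per probe set by the authors with MAS5, per the submitters' processing notes; on every array their trimmed mean is the same and they are on a linear scale. The 2 rounds of amplification tie the signal to the 3' end of transcripts. From these, log2(signal + 8.2) was taken, where 8.2 is the 25th percentile of all signals. Probe sets with a mean log2 value above the 50th percentile, 26383 of 52766, were tested with limma 3.58.1 in R 4.3.3 (lmFit, eBayes with an intensity trend, Benjamini-Hochberg adjustment), in vitro minus in vivo, 4 arrays against 4. Background was the 95th percentile of 59 unspiked control probe sets on each array.

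Members and gene lists were chosen with earlier results of these data known. Named were all members past the adjusted threshold or past an unadjusted p of 0.05 with a 2-fold difference, up to 3 probe sets per family by p and its brightest gene, the single genes and genes known from the egg surface. The fit was tested on simulated data: of 50 probe sets each changed 2-, 4-, 8- and 16-fold, 9, 35, 46 and 49 were called among 26383. Alternatives were other pseudocounts, filters, scalings, variance models, a replicate block, leaving out each array, and 2 covariates added after seeing the data. Of the member probe sets 274 had a gene ID in RefSeq T2T-MMU8v2.0, and no symbol changed.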

Additional observations from a re-analysis of the deposited data

Results flagged for a closer look

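In 9 of 98 groups of 4 arrays checked, over the named member probe sets, 1 array lay far from the other 3, and chance flags about 1 group in 20. Low arrays were in vivo replicate 1 for COL6A1 at 6.8 and for SDC3 at 6.3, and in vivo replicate 4 for CDH17 at 305.5. In culture, replicate 1 was low for COL4A5 at 16.6 and for ITGB3 at 14.4, replicate 2 was low for SDC1 at 130.5, and replicate 3 was low for ADAM15 at 15.9 and for MMP7 at 176.4. The array that stood high was in vitro replicate 2 for ITGB5, at 360.3. Each of these genes has further values in the comparison of its family, and the flagged COL4A5 value is from the probe set that was lower in vitro.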

How the results depend on the processing

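Over 20 alternatives for 49 named member probe sets, 911 values kept their direction and their side of the threshold, 5 newly passed it and 22 turned direction; the causes were not tested. Of all probe sets, 38 passed in the main analysis, 10 without the intensity trend, 88 with array weights, 292 with the EEF1A1 ratio and 58 with the beta-actin ratio as covariate, and from 18 (without in vitro replicate 1) to 97 (without in vivo replicate 4) with 1 array left out. Members passing were 0, against 4 with the EEF1A1 ratio and 0 to 1 with 1 array left out. The 3 members higher by the looser rule became 1 with the median signal as pseudocount, 8 with no filter, 0 with the upper-quarter filter, which tests fewer probe sets, 5 with the beta-actin ratio and 2 to 5 with 1 array left out. The 4 lower ones became 0 with the upper-quarter filter, 9 with either ratio and 4 to 9 with 1 array left out. Shares over all tested probe sets moved too, from 1.24% higher and 1.38% lower in the main fit. The higher share was 1.56% with no filter, where 281 members were tested, and 0.478% with the median signal as pseudocount. With the upper-quarter filter, where 50 members were tested, the shares were 0.75% higher and 0.948% lower. The higher share was 1.31% with the beta-actin ratio and 1.11% to 1.77% with 1 array left out. The lower share was 2.35% with the EEF1A1 ratio, 1.99% with the beta-actin ratio and 1.03% to 2.52% with 1 array left out. The sample numbers did not pair the groups: deviations of same-numbered arrays correlated between -0.0467 and 0.0155, no in vivo array correlated best with its own number, and a replicate block gave 43 calls, 0 of them members.

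Log2 fold changes that turned had main values between -0.46 and -0.01. CDH1 was 0.015 with median centring, 0.0722 with array weights and -0.32 to 0.12 with 1 array left out. CDH3 was 0.0256 with the EEF1A1 ratio and, with 1 array left out, -0.21 to 0.087 and -0.22 to 0.032 at its probe sets. ITGA6 was 0.0468 with quantile normalization and 0.0326 with median centring at 1 probe set, and with 1 array left out its probe sets were -0.093 to 0.097, -0.35 to 0.034 and -0.74 to 0.37. LAMC1 was 0.0593 with median centring, and -0.074 to 0.040 with 1 array left out. ITGB3 was -0.64 to 0.0082 with 1 array left out. A DCN probe set was 0.37 with array weights and -0.54 to 0.40 with 1 array left out. With 4 arrays a group, the fit recovered 9 of 50 simulated 2-fold changes, so differences of that size in members could be missed.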
